A study of Mus musculus with 9 samples.

Results

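The genes described here are those of Wnt signalling: the Wnt ligands, their Frizzled, Lrp and Ror receptors, the secreted inhibitors of the Dkk and Sfrp families with Wif1 and Notum, the R-spondins and their Lgr receptors, and the intracellular feedback genes Axin2 and Nkd1 with the 4 TCF/LEF factors. They were chosen by gene symbol, which gave 56 symbols in the tables: 19 ligands, 14 receptors and co-receptors, 10 secreted inhibitors, 7 R-spondins and Lgr receptors and 6 intracellular genes. Mouse embryonic stem cells (ESCs) of strain 129, wild type in all samples, were differentiated in monolayer towards ventral hindbrain neural stem cells (NSCs). Every culture received retinoic acid (RA) and SAG, an agonist of the Shh transducer Smoothened, from 0 to 3 days in differentiation conditions (DDC) by the labels, whereas the methods of the study place their withdrawal at 3.5DDC. Cells were then sorted magnetically for the progenitor surface protein Prominin-1. RNA-seq libraries were made from polyadenylated RNA at 4.5DDC, 5.5DDC and 6.5DDC, as 3 replicates of each, which makes 9 libraries. By the labels, the groups differ in time alone. One field of the labels gives whole days (4, 5 and 6), and the names of the study were used. Nothing in the labels says whether replicates came from separate cultures, so p-values measure the spread between these libraries, which may be technical.

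Wnt proteins are lipid-modified signals that require the carrier Wls to leave the cell. With an Lrp5 or Lrp6 co-receptor, a Frizzled receptor passes the signal to beta-catenin, which enters the nucleus and acts through TCF/LEF factors, whereas Ror receptors mediate beta-catenin-independent responses to ligands such as Wnt5a. R-spondins bound to Lgr receptors prolong the life of Frizzled at the surface, Sfrp proteins bind Wnts outside the cell and Dkk1 blocks the Lrp co-receptors. In the neural tube Wnt signals from the dorsal midline promote progenitor growth and dorsal fates, and the floor plate is a ventral source of Wnt ligands that guide axons.

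Counts per library summed to between 11066600 and 25506200 (6 digits kept), and a floor of detection of 3 counts corresponded to between 0.118 and 0.271 CPM (counts scaled to equal library totals), for counting error only. Levels are given as FPKM (fragments scaled by transcript length and depth), the only scale here on which different genes can be compared, and differences as log2 fold changes of counts. Of the 6 neural progenitor genes, all were detected in every library: Sox2 lay between 78.2 and 96.0 FPKM, Nes between 138 and 172 FPKM, and Prom1, which encodes the sorted protein, between 62.8 and 207 FPKM. Sox1 lay between 10.2 and 14.7 FPKM and Nkx2-2 between 7.28 and 18.8 FPKM. Sox3, between 1.44 and 14.4 FPKM, was lower at 6.5DDC than at 4.5DDC (log2 fold change −1.80, edgeR quasi-likelihood adjusted p = 0.033) and Prom1 higher (log2 fold change 1.19). The 4 pluripotency genes examined, Pou5f1, Nanog, Zfp42 and Esrrb, summed to at most 1.14 FPKM in any library.

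Replicate 1 of each time point stood apart from replicates 2 and 3. The correlation of log2 CPM across genes, which are not independent replicates, lay between 0.945 and 0.967 for replicate 1 with either other replicate of its time point, and between 0.977 and 0.993 for replicates 2 and 3. Replicates 2 and 3 at 5.5DDC were the closest pair. Set against sampling noise alone, their counts gave a chi-square of 2.52 per degree of freedom, and every other pair between 25.5 and 66.5. These libraries share one estimate of the spread in the main fit. The 5 neuronal genes measured (Elavl3, Elavl4, Dcx, Stmn2 and Map2, with Stmn2 the most abundant by mean) summed to 148, 285 and 231 FPKM in replicates 1 to 3 at 4.5DDC, 148, 380 and 402 FPKM at 5.5DDC and 243, 559 and 606 FPKM at 6.5DDC. Replicate 1 was thus the lowest at each time point, and the sum was higher at 6.5DDC than at 4.5DDC within each replicate. Map2 was the only 1 of these 5 called in the main fit (higher, log2 fold change 1.65). The 5 floor plate genes, of which Spon1 was the most abundant and Lmx1a lay at or under 0.252 FPKM, summed to 576, 315 and 351 FPKM at 4.5DDC, 1119, 689 and 687 FPKM at 5.5DDC and 971, 876 and 939 FPKM at 6.5DDC. Of the 4 floor plate genes tested, Spon1 and Shh were called higher from 4.5DDC to 6.5DDC in that fit. A fit with a replicate block, described below, also called Spon1 and Corin higher from 4.5DDC to 5.5DDC (adjusted p = 0.0221 and 0.0183) and Dcx from 5.5DDC to 6.5DDC (adjusted p = 0.02398). Over the whole span the edgeR fit with this block also called Dcx, Stmn2 and Corin higher (adjusted p = 0.0011, 0.0181 and 0.00054), and 23.2% of all genes. Deviations of same-numbered libraries from their means at 4.5DDC and 6.5DDC correlated at 0.383, −0.0396 and −0.215. Pairing by number thus has little basis over this span. In bulk samples such as these, a change in the share of a cell type and a change in RNA per cell cannot be told apart, and the part of these cell types in the results that follow was not tested.

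Between 4.5DDC and 6.5DDC, the whole span of the samples, RNA of 2 Wnt ligands rose in the sorted cells and RNA of 5 of the 10 Frizzled receptors fell. Of the 56 genes, 33 passed edgeR's filter on low counts and were tested. Of these, 3 rose, Wnt4, Wnt5a and the Dkk family member Dkk3, where 9.21% of all 14742 genes tested were called higher. A further 10 fell, Fzd2, Fzd4, Fzd7, Fzd9, Fzd10, Lrp5, Ror2, Sfrp1, Tcf7 and Tcf7l1, where 9.53% of all genes were called lower. A gene is called where the p-value of the edgeR quasi-likelihood model, after Benjamini-Hochberg adjustment over all genes, is under 0.05, and SE is the standard error of the log2 fold change. The median log2 fold change of the 33 genes was −0.26, and that of all genes tested was 0.0040. In FPKM, all 3 libraries at 6.5DDC lay on one side of all 3 at 4.5DDC for 14 of the 33 genes, and for 34.5% of all genes tested. The count of 10 that fell was 6 without replicate 2 of 4.5DDC and 4 without replicate 2 of 6.5DDC, all of them among the 10. Of the Frizzled genes, the latter fit called Fzd4, Fzd9 and Fzd10 lower, but neither Fzd2 nor Fzd7. The calls over all genes, in either direction, were fewer as well in these fits, 1179 and 1137 against 2763.

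**Figure D1:**
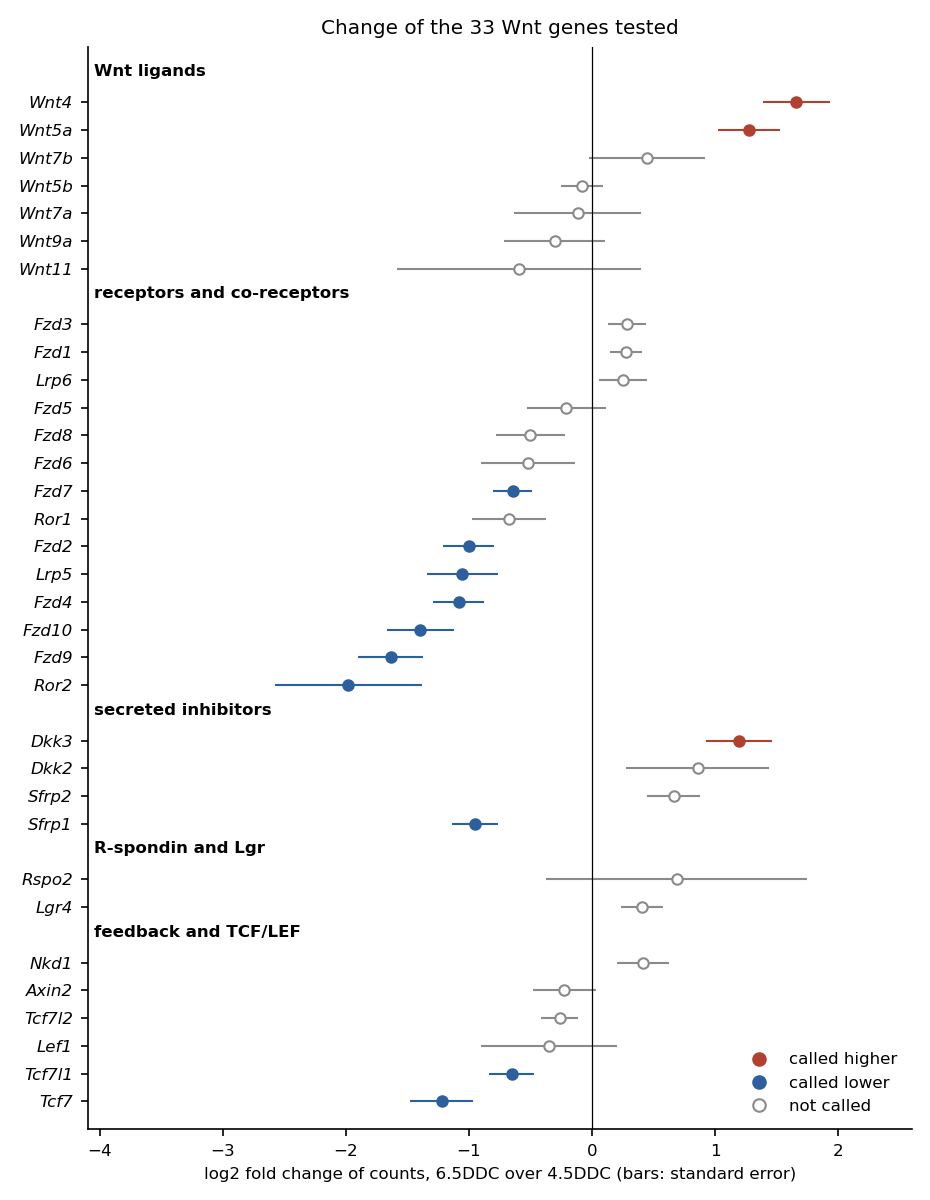
Log2 fold change of counts from 4.5DDC to 6.5DDC for the 33 Wnt genes tested, grouped by role, with 3 libraries per time point. Points are estimates of edgeR's quasi-likelihood fit and bars their standard errors; 3 filled red points (called higher) and 10 filled blue points (called lower) passed an adjusted p of 0.05, and 7 of the blue points are receptors.

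The remaining 23 genes were too low to test. Dkk4 and Wnt9b had no count in any of the 9 libraries. The other 21 (Wnt1, Wnt2, Wnt2b, Wnt3, Wnt3a, Wnt6, Wnt8a, Wnt8b, Wnt10a, Wnt10b, Wnt16, Dkk1, Sfrp4, Sfrp5, Wif1, Notum, Lgr5, Lgr6, Rspo1, Rspo3 and Rspo4) had at most 19 counts and 0.467 FPKM in any library. Wnt1 and Wnt3a, ligands of the dorsal midline, thus had at most 5 counts in any library. Roof plate and dorsal markers were low as well: Gdf7 had 1 count over the 9 libraries and Pax3 at most 5 in any. Lmx1b, which the study also uses as a marker of floor plate and of serotonergic neurons, made up most of the sum of the 6 genes of that list. The sum was 14.5, 9.24 and 5.07 FPKM at 4.5DDC, 29.5, 17.1 and 14.2 FPKM at 5.5DDC and 12.5, 8.15 and 13.2 FPKM at 6.5DDC. Msx1, Msx2 and Pax7 had at most 29, 17 and 21 counts in any library. Of the 6 genes of that list, 2 were tested and neither was called.

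RefSeq start sites with their upstream sequence (build GRCm38.p6) were matched for 38 of the 56 genes and for 8 of the 13 that changed. The sequences below belong to Wnt4, the ligand with the largest rise in the main fit, and to Fzd7 and Ror2. Fzd7 was the most abundant Frizzled that fell, and Ror2 the receptor with the largest fall in that fit. The sequences are shown as the start regions of genes that moved in opposite directions, with CpG in capitals. The Fzd7 stretch is chr1:59481897-59482146 on the plus strand, the Ror2 stretch chr13:53286125-53286374 on the minus strand, each the 250 bases before the RefSeq start, and the Wnt4 stretch chr4:137277385-137277488 on the plus strand, which stops where the first annotated exon of Wnt4 begins. None of these 3 stretches overlapped an annotated exon. For Fzd7 the RefSeq start lies upstream of the GENCODE start given with its levels, so the stretch does not adjoin the latter.
Wnt4: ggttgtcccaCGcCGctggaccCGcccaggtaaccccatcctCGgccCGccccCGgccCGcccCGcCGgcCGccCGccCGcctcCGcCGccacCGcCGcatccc
Fzd7: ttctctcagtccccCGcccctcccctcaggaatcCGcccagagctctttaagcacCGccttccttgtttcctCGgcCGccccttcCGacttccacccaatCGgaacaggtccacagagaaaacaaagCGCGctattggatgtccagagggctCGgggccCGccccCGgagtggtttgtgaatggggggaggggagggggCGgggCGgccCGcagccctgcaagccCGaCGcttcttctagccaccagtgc
Ror2: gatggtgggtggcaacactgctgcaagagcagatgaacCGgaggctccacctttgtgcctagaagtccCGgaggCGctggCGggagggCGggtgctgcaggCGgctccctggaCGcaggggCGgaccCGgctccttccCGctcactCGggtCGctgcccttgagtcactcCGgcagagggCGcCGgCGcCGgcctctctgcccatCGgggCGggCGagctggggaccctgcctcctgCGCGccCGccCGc
The stretch of Wnt4 held 16 CpG in 104 bases, that of Fzd7 17 in 250 and that of Ror2 24 in 250. Over the 9 windows of 250 bases of genes that changed, the count ran from 15 to 44, and the median of all 32851 windows was 6. Over the 37 windows of the Wnt genes that were not called it ran from 4 to 48, so the windows of genes that changed lie within that range. These windows were searched on both strands for 4 TCF/LEF motifs of 7 bases and for the GLI motif TGGGTGGTC. Of the 9 windows, 1 held a TCF/LEF motif, that of Fzd7, which reads AACAAAG and begins 130 bases before the RefSeq start. A TCF/LEF motif was found in 14.8% of all windows and the GLI motif in 0.225%, and none of the 9 windows held the latter. A match is a run of letters and not a measured binding site.

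Of the 19 ligands, 7 were tested, and 2 rose. Wnt4, a ligand with roles in kidney and in axon guidance at the floor plate (chr4:137277489-137299726, plus strand), had 7.53, 3.97 and 4.40 FPKM in replicates 1 to 3 at 4.5DDC, 15.7, 11.9 and 12.003 FPKM at 5.5DDC and 20.7, 12.4 and 17.4 FPKM at 6.5DDC. Every library at 5.5DDC and 6.5DDC lay above every library at 4.5DDC, and replicate 1 was the highest at each time point. The mean level was 3.18 times as high at 6.5DDC (16.8 ± 4.14 FPKM, SD, n = 3) as at 4.5DDC (5.30 ± 1.94 FPKM). The log2 fold change was 1.66 (SE 0.27, edgeR quasi-likelihood adjusted p = 0.00486). The floor plate sum above was likewise highest in replicate 1 at each time point. Its part in the level of Wnt4 was not tested.

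Wnt5a, which signals mainly without beta-catenin (chr14:28504750-28527448, plus strand), had 5.87, 10.8 and 13.3 FPKM at 4.5DDC, 13.9, 18.4 and 21.1 FPKM at 5.5DDC and 22.9, 26.3 and 25.99 FPKM at 6.5DDC. The 3 time points did not overlap, and replicate 1 was the lowest at each. Its log2 fold change over the whole span was 1.28 (SE 0.25, edgeR quasi-likelihood adjusted p = 0.00942). By mean over the 9 libraries it was the most abundant ligand, although Wnt7a had the higher mean at 4.5DDC. An antisense gene, Gm2670, covers 4.58% of the exonic bases of Wnt5a.

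Wnt7a (chr6:91363981-91411363, minus strand) differed between replicates more than between time points. It had 3.94, 16.3 and 12.9 FPKM at 4.5DDC, 6.16, 14.1 and 26.7 FPKM at 5.5DDC and 3.41, 21.8 and 19.8 FPKM at 6.5DDC, so that replicate 1 was the lowest at each time point. On the scale of counts, replicates 2 and 3 at 5.5DDC were closer, at 24.0 and 25.8 CPM, than their FPKM. From 4.5DDC to 6.5DDC the mean FPKM went from 11.05 to 15.01 but the mean CPM from 19.0 to 17.7, so the direction depends on the scale, and why was not tested. The log2 fold change over the whole span was −0.12 (SE 0.52, edgeR quasi-likelihood adjusted p = 0.894). The related Wnt7b was likewise lowest in replicate 1 at each time point, at 0.583, 0.977 and 0.920 FPKM against between 1.41 and 2.27 FPKM in the other libraries. Both genes shared the low value in replicate 1 with the sum of the neuronal genes above, and the part of the neuronal share was not tested.

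Wnt5b lay between 6.46 and 9.16 FPKM in the 9 libraries, and the log2 fold changes of the 5 ligands that were not called lay between −0.59 (Wnt11) and 0.45 (Wnt7b). Wnt9a lay between 0.330 and 1.05 FPKM and Wnt11 at or under 0.545 FPKM. All 19 ligands together summed to 26.8, 43.7 and 39.5 FPKM at 4.5DDC, 45.6, 54.2 and 70.1 FPKM at 5.5DDC and 56.9, 70.7 and 73.8 FPKM at 6.5DDC. Wnt4, Wnt5a, Wnt5b and Wnt7a made up between 91.6% and 96.3% of this sum, which takes Wnt7a on its FPKM scale. The share of Wnt5a was between 21.9% and 33.6% at 4.5DDC and between 35.2% and 40.2% at 6.5DDC. The neuronal and floor plate sums given above were also higher at 6.5DDC than at 4.5DDC in each replicate, and their part in the ligand sum was not tested.

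**Figure D2:**
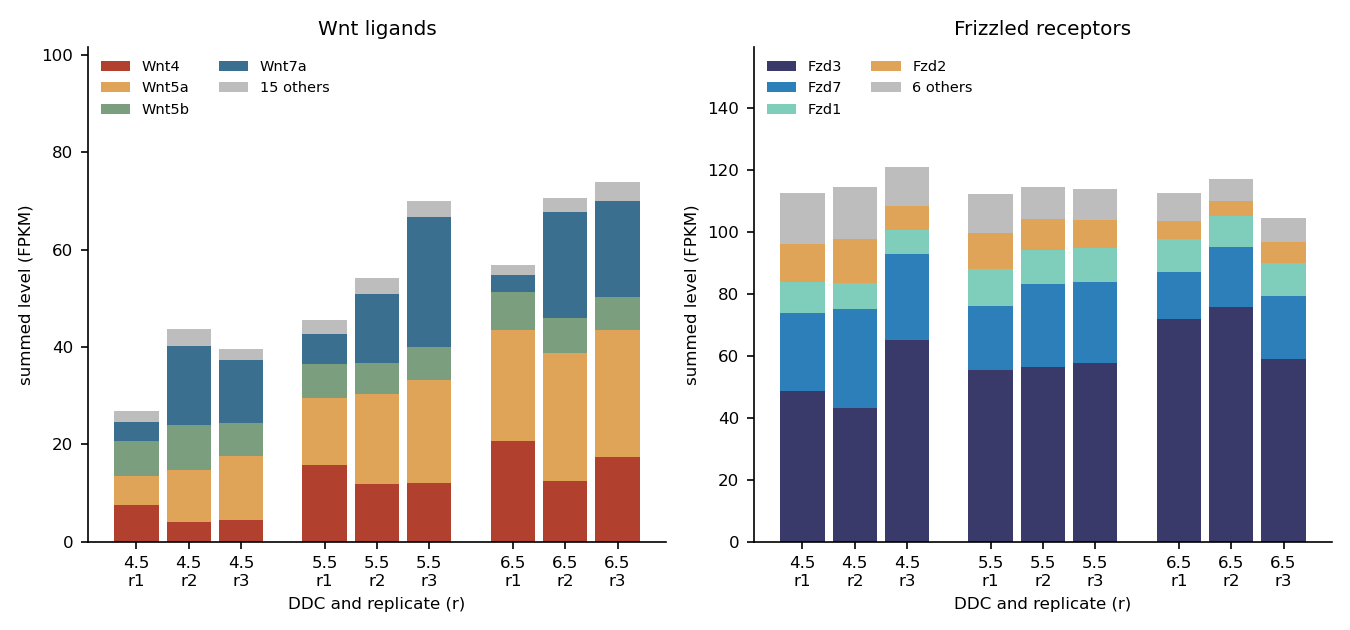
Summed FPKM of the 19 Wnt ligands (left) and the 10 Frizzled receptors (right) in each library, by time point (DDC) and replicate (r1 to r3), with the most abundant genes of each family in colour. The ligand sum runs from 26.8 FPKM (4.5DDC, replicate 1) to 73.8 FPKM (6.5DDC, replicate 3), while the Frizzled sum stays between 104 and 121 FPKM, of which Fzd3 makes up the largest part at 6.5DDC.

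All 14 receptors and co-receptors were tested, 7 fell and none rose. Without replicate 2 of 6.5DDC, Fzd4, Fzd9 and Fzd10 were the only receptors called lower, in a fit that called 1137 of all 14742 genes. Fzd3, a Frizzled known for planar cell polarity and axon growth, had the highest mean of all 56 genes over the 9 libraries, although Sfrp1 was higher in each replicate at 4.5DDC (chr14:65192449-65262463, minus strand). It had 48.7, 43.2 and 65.2 FPKM at 4.5DDC, 55.4, 56.5 and 57.8 FPKM at 5.5DDC and 72.0, 75.6 and 58.9 FPKM at 6.5DDC. Values at 6.5DDC overlapped with those at 4.5DDC, and the log2 fold change of 0.28 did not pass the test (SE 0.16, edgeR quasi-likelihood adjusted p = 0.224). Fzd7, the Frizzled next in abundance (chr1:59482424-59486955, plus strand), had 25.1, 31.8 and 27.8 FPKM at 4.5DDC, 20.8, 26.7 and 25.98 FPKM at 5.5DDC and 14.96, 19.6 and 20.4 FPKM at 6.5DDC. The libraries at 6.5DDC were all below those at 4.5DDC, and Fzd7 fell by 0.64 on the log2 scale (SE 0.16, edgeR quasi-likelihood adjusted p = 0.0216). This call was lost without replicate 2 or 3 of 4.5DDC or replicate 2 of 6.5DDC, with an adjusted p of up to 0.0789, and its adjusted p over the 19 alternatives began at 0.00347.

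The other 4 Frizzled genes that fell had lower levels. Fzd9 (chr5:135248938-135251230, minus strand) had 3.25, 5.20 and 3.25 FPKM at 4.5DDC, 2.68, 2.94 and 2.85 FPKM at 5.5DDC and 1.51, 0.976 and 1.27 FPKM at 6.5DDC. The 3 time points did not overlap, and the fall of 1.64 on the log2 scale was the largest among the Frizzled genes (SE 0.27, edgeR quasi-likelihood adjusted p = 0.00460). Fzd10 (chr5:128600844-128604093, plus strand), a dorsal gene in the embryonic neural tube, had 2.37, 3.23 and 2.29 FPKM at 4.5DDC, 1.83, 1.57 and 1.35 FPKM at 5.5DDC and 1.24, 0.961 and 0.798 FPKM at 6.5DDC. Again the time points did not overlap, and Fzd10 fell by 1.39 (SE 0.27, edgeR adjusted p = 0.00860). Fzd4, which also serves as the receptor for Norrin (chr7:89404355-89413134, plus strand), had 2.06, 2.58 and 2.38 FPKM at 4.5DDC, 1.24, 1.56 and 1.36 FPKM at 5.5DDC and 1.09, 1.04 and 1.21 FPKM at 6.5DDC. It fell by 1.08 (SE 0.21, edgeR adjusted p = 0.00834), and none of its libraries at 4.5DDC overlapped with later ones. Fzd2 (chr11:102604396-102608058, plus strand) had 12.3, 14.2 and 7.85 FPKM at 4.5DDC, 11.5, 9.96 and 8.94 FPKM at 5.5DDC and 5.65, 4.85 and 6.75 FPKM at 6.5DDC. Only 6.5DDC stood apart, Fzd2 fell by 1.001 (SE 0.21, edgeR adjusted p = 0.0113), and leaving out replicate 2 of 6.5DDC removed the call (adjusted p = 0.0526, the highest of 19 alternatives, the lowest being 0.000222).

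Fzd1, Fzd5, Fzd6 and Fzd8 were not called. Fzd6 was higher in replicate 1 (6.65, 4.65 and 3.96 FPKM at the 3 time points) than in any library of replicates 2 and 3, which lay between 2.26 and 3.39 FPKM. Of the 10 Frizzled genes, 8 had a log2 fold change below 0, with TMM, with RLE size factors and with library totals alike. Under each scaling 5 were called lower, although with 1 library left out Fzd7 lost its call in 3 fits and Fzd2 in 1. In FPKM the 10 genes nevertheless summed to 116 ± 4.32 at 4.5DDC, 113 ± 1.20 at 5.5DDC and 111 ± 6.45 at 6.5DDC (SD, n = 3). Without Fzd3 the sum was 63.6 ± 7.88, 56.9 ± 0.901 and 42.5 ± 2.66 FPKM.

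The co-receptors Lrp5 and Lrp6 are close relatives. Lrp5 (chr19:3584828-3686564, minus strand) had 6.51, 8.37 and 4.37 FPKM at 4.5DDC, 7.77, 6.24 and 6.01 FPKM at 5.5DDC and 2.51, 2.24 and 4.66 FPKM at 6.5DDC. Replicate 3 was the lowest at 4.5DDC and the highest at 6.5DDC, and these 2 libraries made the groups overlap. Lrp5 fell by 1.05 on the log2 scale (SE 0.29, edgeR quasi-likelihood adjusted p = 0.0321), but in 8 of 19 alternatives it was not called, among them those without replicate 1 or 2 of 4.5DDC and without replicate 1 or 2 of 6.5DDC, and its adjusted p ran from 0.00441 to 0.119. Lrp6 lay between 14.8 and 25.8 FPKM, with a log2 fold change of 0.25 and an adjusted p of 0.376. Whether the 2 co-receptors differ in their change was not tested.

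Ror2, a receptor for Wnt5a (chr13:53109312-53286124, minus strand), had 1.53, 3.38 and 0.832 FPKM at 4.5DDC, 1.003, 1.32 and 1.05 FPKM at 5.5DDC and 0.186, 0.309 and 1.14 FPKM at 6.5DDC. Replicate 3 had more at 6.5DDC than at 4.5DDC, against the other replicates, and the groups overlapped. Ror2 fell by 1.98 on the log2 scale with a large error (SE 0.60, edgeR quasi-likelihood adjusted p = 0.0455). It was not called in 12 of 19 alternatives, among them those without replicate 1 or 2 of 4.5DDC, replicate 2 or 3 of 5.5DDC, or replicate 1 or 2 of 6.5DDC, and its adjusted p ran from 0.00572 to 0.182. Over these alternatives its log2 fold change ran from −2.845 to −0.872. Ror1 lay between 0.340 and 0.839 FPKM and was not called (log2 fold change −0.67, adjusted p = 0.144).

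**Figure D3:**
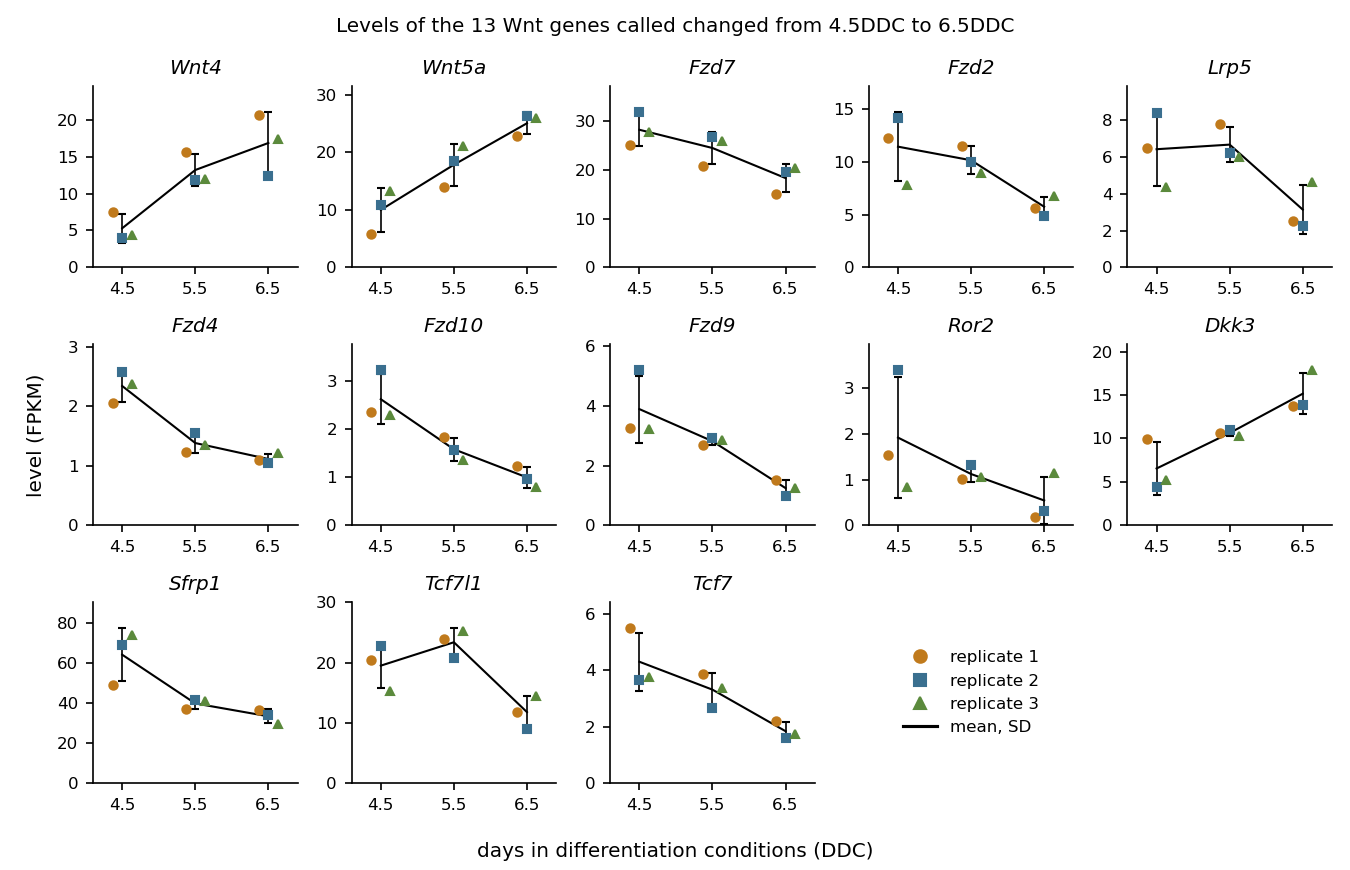
FPKM of the 13 Wnt genes called changed from 4.5DDC to 6.5DDC, in each of the 9 libraries (symbols by replicate) against days in differentiation conditions, with the mean and SD of 3 libraries in black. Wnt4, Wnt5a and Dkk3 are higher at 6.5DDC in all 3 libraries than in any at 4.5DDC, and Lrp5 and Ror2 are the 2 genes whose libraries overlap between those time points.

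Among the secreted inhibitors, 4 of 10 were tested, 1 rose and 1 fell. Sfrp1 and Sfrp2, which bind Wnts through a Frizzled-like domain, were the most abundant. Sfrp1 (chr8:23411502-23449632, plus strand) had 49.3, 68.9 and 74.2 FPKM at 4.5DDC, 36.9, 41.5 and 41.2 FPKM at 5.5DDC and 36.6, 34.2 and 29.6 FPKM at 6.5DDC. The 3 time points did not overlap, although the 5.5DDC and 6.5DDC values of replicate 1 lay close together. Sfrp1 fell by 0.95 on the log2 scale (SE 0.18, edgeR quasi-likelihood adjusted p = 0.00856). Sfrp1 is on the supplementary list of biphasic genes that the study drew up from expression in samples that include these, so its fall is not independent evidence. Sfrp2 (chr3:83766321-83774316, plus strand) had 18.7, 23.8 and 16.5 FPKM at 4.5DDC, 36.2, 27.7 and 27.0 FPKM at 5.5DDC and 36.8, 22.6 and 34.1 FPKM at 6.5DDC. Its log2 fold change of 0.66 (SE 0.21) just missed the threshold (adjusted p = 0.0554). Sfrp2 passed it in 4 of 19 alternatives, including the DESeq2 Wald test and the fits without replicate 1 of 5.5DDC or replicate 2 of 6.5DDC, with adjusted p between 0.0214 and 0.145. An antisense gene, Gm26771, covers 16.1% of the exonic bases of Sfrp2.

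Dkk3, a secreted member of the Dkk family that does not act on the Lrp co-receptors as Dkk1 does (chr7:112116017-112159057, minus strand), had 9.99, 4.47 and 5.19 FPKM at 4.5DDC, 10.6, 10.98 and 10.3 FPKM at 5.5DDC and 13.7, 13.9 and 17.8 FPKM at 6.5DDC. The time points did not overlap, but replicate 1 at 4.5DDC reached nearly the level of 5.5DDC. Dkk3 rose by 1.20 (SE 0.27, edgeR quasi-likelihood adjusted p = 0.0154). The call was lost only without replicate 3 of 4.5DDC (adjusted p = 0.05002, the highest of the 19 alternatives, the lowest being 0.000364). Dkk2 lay between 0.0742 and 0.631 FPKM and was not called.

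Of the 4 R-spondins only Rspo2 passed the filter on low counts. Of the 7 genes of this group 2 were tested and neither was called. Lgr4 (chr2:109917647-110014257, plus strand) was the only 1 above 1 FPKM on average, with 21.6, 21.6 and 27.3 FPKM at 4.5DDC, 20.6, 27.5 and 27.0 FPKM at 5.5DDC and 26.8, 34.9 and 32.1 FPKM at 6.5DDC. The groups overlapped, with a log2 fold change of 0.41 (SE 0.17, edgeR quasi-likelihood adjusted p = 0.116). Rspo2 (chr15:43020794-43170826, minus strand) was seen mainly in replicate 1, with 0.309, 0.107 and 0.0498 FPKM in replicates 1 to 3 at 4.5DDC (23, 5 and 3 counts), 0.832, 0.105 and 0.0658 FPKM at 5.5DDC (88, 5 and 3 counts) and 0.553, 0.160 and 0.0757 FPKM at 6.5DDC (29, 11 and 5 counts).

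Of the intracellular genes, all 6 were tested and 2 fell, both TCF/LEF factors. Tcf7l1, known mainly as a repressor of Wnt targets in stem cells (chr6:72626378-72789254, minus strand), had 20.5, 22.7 and 15.4 FPKM at 4.5DDC, 24.0, 20.8 and 25.3 FPKM at 5.5DDC and 11.8, 9.09 and 14.5 FPKM at 6.5DDC. The libraries at 6.5DDC lay below all others. Tcf7l1 fell by 0.65 over the whole span (SE 0.18, edgeR quasi-likelihood adjusted p = 0.0353). It was not called in 11 of 19 alternatives, among them each fit without replicate 1 or 2 of 4.5DDC, replicate 2 or 3 of 5.5DDC, or replicate 1 or 2 of 6.5DDC, with adjusted p between 0.0110 and 0.127. Tcf7 (chr11:52252371-52283014, minus strand) had 5.48, 3.67 and 3.75 FPKM at 4.5DDC, 3.88, 2.68 and 3.38 FPKM at 5.5DDC and 2.20, 1.60 and 1.73 FPKM at 6.5DDC. Replicate 1 was the highest at each time point, and 6.5DDC lay below both earlier time points. Tcf7 fell by 1.22 (SE 0.26, edgeR adjusted p = 0.0121), and leaving out replicate 2 of 6.5DDC removed it from the called genes (adjusted p = 0.0553, the highest of 19 alternatives, the lowest being 0.000273).

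Tcf7l2 (chr19:55741820-55933654, plus strand) gave different pictures on the 2 scales. In FPKM it had 8.25, 12.5 and 8.75 at 4.5DDC, 13.9, 14.4 and 16.0 at 5.5DDC and 7.89, 5.81 and 7.08 at 6.5DDC, so that every library at 5.5DDC lay above all others. In CPM the same libraries had 34.8, 33.3 and 34.5, then 35.5, 32.6 and 41.7, then 26.1, 27.2 and 32.4, and the 4.5DDC and 5.5DDC values overlapped. The log2 fold change of counts was 0.07 from 4.5DDC to 5.5DDC and −0.26 over the whole span (adjusted p = 0.243), and it was called in none of the 19 alternatives over the whole span, those on FPKM included. Why the 2 measures differ was not tested. Lef1 had at most 0.272 FPKM and 13 counts in any library. The feedback genes Axin2 and Nkd1, targets of beta-catenin signalling in many tissues, were present but not called: Axin2 lay between 3.06 and 7.40 FPKM (log2 fold change −0.22, adjusted p = 0.564) and Nkd1 between 3.69 and 8.56 FPKM (log2 fold change 0.41, adjusted p = 0.194). An antisense gene, Gm15401, covers 4.56% of the exonic bases of Tcf7l1, and the strand setting of the counting is not given in the sources used here.

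In the main edgeR fit neither shorter interval had a Wnt gene past the threshold, and few genes of any kind passed it. In the earlier interval (4.5DDC to 5.5DDC) edgeR called 0 of the 33 genes, where 0.0746% of all genes were, and 8 of the 33 had an unadjusted p under 0.05, as did 2275 of all 14742. DESeq2 called 3 over this interval (Wnt4, Fzd4 and Sfrp1), and 3.36% of all genes, while limma voom and limma-trend on FPKM called 0. When the fit was given replicate numbers as a block, which pairs libraries of the same number, Wnt4 passed and was higher (log2 fold change 1.32, adjusted p = 0.0146), where 1.44% of all genes were called. The adjusted p for Wnt4 over the 19 alternatives for this interval ran from 0.00224 to 0.41. Replicates 2 and 3 alone gave 3 (Dkk3, Sfrp1 and Wnt4), and 3.30% of all genes. In the later interval (5.5DDC to 6.5DDC) edgeR without the block called 0 of the 33, where 0.224% of all genes were, and 7 had an unadjusted p under 0.05, as did 2733 of all genes. DESeq2 called 4 (Fzd2, Fzd9, Lrp5 and Tcf7l1), and 4.55% of all genes, and limma voom and limma-trend on FPKM 0. The block called none of the 33 over this interval, where it called 1.32% of all genes, and replicates 2 and 3 alone gave 1 (Fzd9), and 4.82% of all genes.

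The estimates of the intervals describe when the changes of the whole span took place, without a test of the difference between intervals. Wnt4, Fzd4 and Sfrp1 had the larger part of their log2 change in the earlier interval: 1.27 of 1.66 for Wnt4, with 0.39 in the later. For Fzd4 the estimates were −0.82 and −0.26, and for Sfrp1 −0.74 and −0.22. For Fzd2, Fzd7, Fzd9, Lrp5, Ror2 and Tcf7 the later estimate was the larger in size, −0.78 against −0.22 for Fzd2, −0.39 against −0.25 for Fzd7, −1.15 against −0.49 for Fzd9, −1.07 against 0.02 for Lrp5, −1.19 against −0.79 for Ror2 and −0.85 against −0.37 for Tcf7. The estimates for Tcf7l1 had opposite signs, 0.30 and −0.96. Those for Wnt5a (0.76 and 0.52), Dkk3 (0.65 and 0.54) and Fzd10 (−0.76 and −0.63) were somewhat larger in size in the earlier interval. For Fzd7, Ror2, Wnt5a, Dkk3 and Fzd10 the earlier and later estimates differed by less than the standard error of either. Their order in size therefore does not place the change in one interval.

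All 13 genes called over the whole span had the same sign of change within replicate 1 as in the mean of replicates 2 and 3. The log2 difference in scaled CPM was 1.51 within replicate 1 and 1.78 within replicates 2 and 3 for Wnt4, and 1.83 and 1.10 for Wnt5a. For Fzd9 it was −1.06 and −1.90, for Fzd10 −0.87 and −1.67, and for Sfrp1 −0.38 and −1.21. For Dkk3 it was 0.52 and 1.67, so that for both Sfrp1 and Dkk3 replicate 1 changed less than the others. With replicates 2 and 3 alone in the fit, 7 genes were called lower (Lrp5, Ror2 and Tcf7l1 were not) and 4 higher, Nkd1 besides the 3. That fit called 30.7% of all genes in either direction, so its 11 of 33 is close to the share of all genes. The choice of genes by their call favours a shared sign, which is therefore not a sign of stability.

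**Figure D4:**
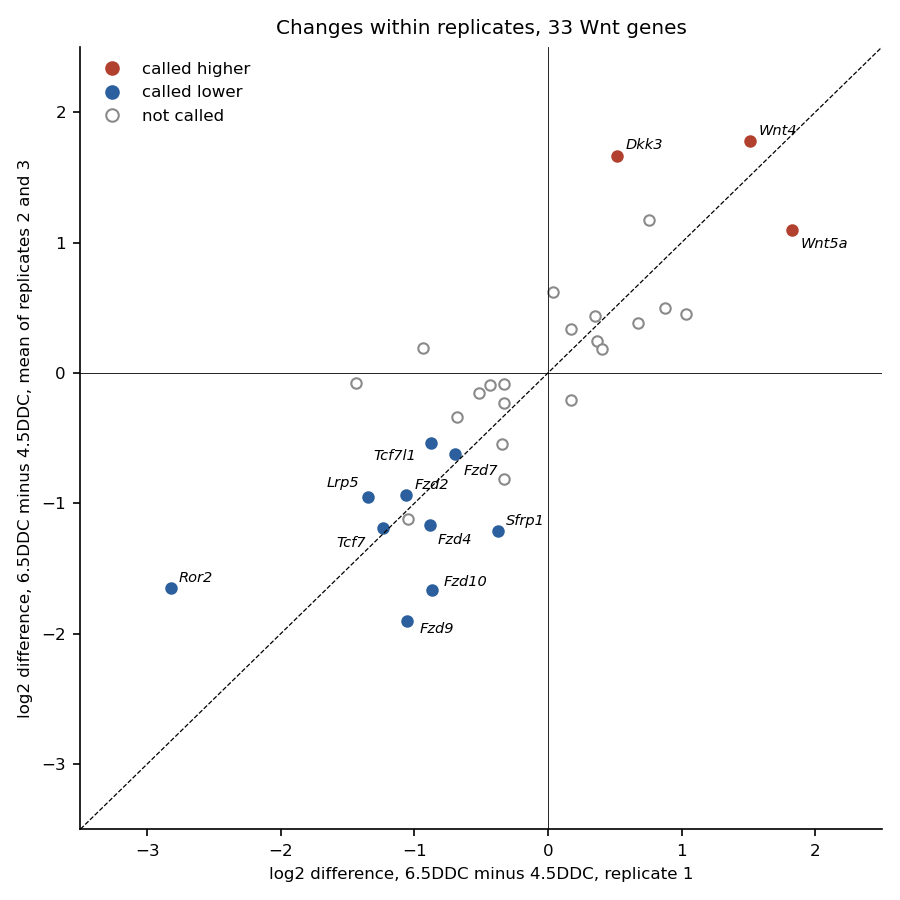
Log2 difference between 6.5DDC and 4.5DDC in TMM-scaled CPM for the 33 Wnt genes tested, in replicate 1 (horizontal axis, 1 library per time point) and in the mean of replicates 2 and 3 (vertical axis). The dashed line marks equal values; all 13 called genes lie where both values have the same sign, with Dkk3 at 0.52 and 1.67 and Ror2 at −2.83 and −1.65.

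Genes of the pathway outside the rule were examined as a list of 75, of which 66 were tested over the whole span. Of these, 6 rose and 3 fell, 9 of 66, where 18.7% of all genes tested were called in either direction, and their median log2 fold change was −0.06. Both genes of ligand secretion were tested, and Wls, the carrier that takes Wnt proteins to the cell surface, rose most of the 9. It had 71.7, 47.3 and 56.7 FPKM at 4.5DDC, 144, 117 and 110 FPKM at 5.5DDC and 303, 256 and 212 FPKM at 6.5DDC. The 3 time points did not overlap, and the log2 fold change was 2.14 (SE 0.21, edgeR quasi-likelihood adjusted p = 0.000884). With the block Wls was also called in each shorter interval (adjusted p = 0.0235 and 0.02398), and Kremen1 in the earlier of them (adjusted p = 0.0229). The other gene of this group, Porcn, which attaches the lipid to Wnts, was not called.

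Prickle2, a planar cell polarity gene, rose by 1.67 on the log2 scale, from between 1.77 and 2.23 FPKM at 4.5DDC to between 5.22 and 6.80 FPKM at 6.5DDC (SE 0.17, edgeR quasi-likelihood adjusted p = 0.000884). Daam2, a formin that binds Dishevelled, rose by 0.94 (adjusted p = 0.0306), Tmem67, a transition zone protein of the cilium that binds Wnt5a, by 1.03 (adjusted p = 0.0189), Kremen1, a receptor for Dkk proteins, by 1.12 (adjusted p = 0.0479) and Btrc, the ubiquitin ligase subunit that recognises beta-catenin, by 0.71 (adjusted p = 0.00542). Ccnd1, the G1 cyclin and a common Wnt target, fell by 2.15 (SE 0.46, edgeR adjusted p = 0.0134). It had 141, 116 and 99.3 FPKM at 4.5DDC, 109, 62.1 and 62.2 FPKM at 5.5DDC and 48.6, 17.2 and 13.2 FPKM at 6.5DDC, with replicate 1 the highest at each time point, and an antisense gene covers 23.4% of its exonic bases. With the block it was also called from 5.5DDC to 6.5DDC (adjusted p = 0.0308). Tle3, a corepressor of TCF/LEF factors, fell by 0.68 (adjusted p = 0.0394), and Frat2, an inhibitor of Gsk3, by 0.75 (adjusted p = 0.0306). Frat2 is on the same list of the study as Sfrp1. Ccnd1 lost its call without replicate 2 of 6.5DDC (adjusted p = 0.0592, the highest of 19 alternatives, the lowest being 1.629e-05). Over these alternatives its log2 fold change ran from −2.98 to −1.81. Kremen1 was not called in 11 of 19 alternatives, Tle3 in 10, Frat2 in 8, Daam2 in 5 and Tmem67 in 2.

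Of the 7 groups of this list, 4 had a gene of highest mean over the 9 libraries that was not called in the main fit. Ctnnb1, which encodes beta-catenin, lay between 449 and 618 FPKM in the 9 libraries (log2 fold change −0.21, edgeR quasi-likelihood adjusted p = 0.236), Csnk1d, a casein kinase, between 96.3 and 126 FPKM, Vangl2, a core planar cell polarity gene, between 38.0 and 63.9 FPKM (below the mean of Scrib at 4.5DDC and 5.5DDC), and Gpc3, a glypican, between 107 and 285 FPKM. The count of 9 was 4 without replicate 2 of 4.5DDC and 3 without replicate 2 of 6.5DDC, where Btrc, Prickle2 and Wls were called, and 14 with replicates 2 and 3 alone. These fits called 1179, 1137 and 4530 of all 14742 genes, so 14 of 66 lies below the share of all genes in its fit.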

How the data were processed

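The authors mapped reads to GRCm38 with TopHat2 2.0.4 and counted them per gene with HTSeq 0.6.1, per the labels and the methods of the study. The deposited table holds counts without normalization, of which 98 of 38197 symbols have a value that is not exactly whole. The deposited values are therefore called expected counts here, counted by the authors without normalization, and were rounded, although whole counts had been assumed when the test was chosen, and why these are not whole was not tested. The authors computed the deposited FPKM with Cufflinks 2.1.1, used here as levels without further scaling. Deposited log2 values were not used here. Annotation release and strand setting of the counting are not given in the sources used here.

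Genes were filtered with filterByExpr (14742 kept), scaled by TMM (factors 0.951 to 1.04) and fitted with edgeR 4.0.16 (R 4.3.3). The fit was 1 quasi-likelihood model of all 9 libraries with the time point as factor. It was chosen after tests on simulated data, whose results are not reported here. The Benjamini-Hochberg adjustment covered all genes, with a threshold of 0.05. Alternatives were RLE size factors, library totals, no filter, DESeq2 1.42.0, limma 3.58.1 (voom, and trend on log2 FPKM with a pseudocount of 1 or 0.1 where the mean reached 0.5 FPKM), the 6 libraries compared, a replicate block, replicates 2 and 3 alone and each library left out. Gene positions come from GENCODE M21. The TCF/LEF motifs searched were CTTTG followed by 2 bases, each A or T. Tables and plots used Python 3.11.15, pandas 2.3.3 and matplotlib 3.10.9.

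Values in every library are given for genes called in any comparison and for the 2 genes of each role with the highest mean FPKM. Of the other pathway and marker lists the called genes and the most abundant of each group are named, and further genes were named after their values were seen. Of the planned marker lists, 1 gene is not reported here and is left out of its list. The members and lists were chosen with earlier results of these data known.

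Replicate numbers come from the labels, which do not say what a number shares. Each library's deviation from the mean of its time point was correlated with that of the library bearing its number at the next time point. Replicates 1, 2 and 3 gave 0.743, 0.386 and 0.452 in the earlier interval, then 0.454, 0.367 and 0.197 in the later, and both intervals were therefore treated as paired in the block fits. Replicates 2 and 3 also correlated across their numbers in these intervals, between 0.225 and 0.405, so the numbers mainly set replicate 1 apart.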

Additional observations from a re-analysis of the deposited data

How the results depend on the processing

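From 4.5DDC to 6.5DDC the count of Wnt genes called higher was 3 and lay between 2 and 4 in the 19 alternatives. The count called lower was 10 and lay between 4 and 10 with 1 library left out and between 7 and 10 in the others. All of those called lower were among the 10. Over all genes the calls numbered 2763 in the main fit, 1137 without replicate 2 of 6.5DDC (4 Wnt genes lower), 3097 without replicate 1 of 6.5DDC (7 lower) and 4530 with replicates 2 and 3 only (7 lower), so the counts did not always move together. Fzd4, Fzd9, Fzd10, Sfrp1, Wnt4 and Wnt5a were called in each of the 19 alternatives, and no call reversed its direction. The other pathway genes called numbered 9, between 3 and 11 with 1 library left out, 12 with DESeq2 and 14 with replicates 2 and 3 only. Over this span DESeq2 called 25% of all genes, and replicates 2 and 3 only gave 30.7%. In the shorter intervals, where the count was 0 and stayed at 0 (0 to 0) with 1 library left out, DESeq2 called 3 and then 4 Wnt genes, beside 3.36% and 4.55% of all genes, and replicates 2 and 3 only gave 3 and then 1, beside 3.30% and 4.82%; the cause was not tested. The replicate block called 1 in the earlier interval and 0 in the later, and changed no other call of the 33 genes. For 4.5DDC with 6.5DDC the correlations of same-numbered libraries were 0.383, −0.0396 and −0.215, so the libraries share only a number there, and not every library was closest to its own number. With the block 10 were lower, 3 higher and 12 other pathway genes changed (Gpc3, Tnfrsf19 and Trabd2b besides the 9), and of the marker genes Dcx, Stmn2, Corin, Sox17, Gata4, Gata6, Col3a1, Pdgfra and Prrx1 were also called, all higher. The block fit called 3418 of all 14742 genes over this span, 23.2%, so 12 of 66 lies below the share of all genes. Where a fit leaves 2 libraries at a time point, the spread is shared with the other groups. RLE size factors and library totals moved the median of all genes by at most 0.032 on the log2 scale. The 23 genes that were not tested had been removed by the filter on low counts.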

Other observations

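The part of the following marker lists of other cell types in the Wnt results was not tested. The 7 neural crest and mesenchyme genes summed to 6.63, 13.6 and 7.36 FPKM in replicates 1 to 3 at 4.5DDC, 12.2, 26.04 and 23.5 FPKM at 5.5DDC and 17.6, 34.9 and 47.4 FPKM at 6.5DDC. Col3a1 had the highest mean over the 9 libraries, but Twist1 had the higher mean at 4.5DDC and 5.5DDC. Sox10 and Foxd3 had at most 2 counts in any library, and of the 5 tested only Twist1 was called in the main fit over the whole span (higher, log2 fold change 0.74, edgeR quasi-likelihood adjusted p = 0.0276). The replicate block called Col3a1 higher in each shorter interval (adjusted p = 0.0407 and 0.0429). The 5 endoderm genes summed to 3.64, 1.75 and 0.593 FPKM at 4.5DDC, 3.17, 1.03 and 1.52 FPKM at 5.5DDC and 12.7, 2.28 and 2.16 FPKM at 6.5DDC. Gata4 was the most abundant, replicate 1 was the highest at each time point, and none of the 3 tested was called over the whole span in the main fit. As given above, the replicate block called these 3 higher over that span, as well as Col3a1, Pdgfra and Prrx1, where it called 23.2% of all genes.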
